A study of Mus musculus with 16 samples.

Results

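The 9 genes described here are homeostatic microglia genes, that is, genes that microglia express at rest: Cx3cr1, P2ry12, P2ry13, Gpr34, Selplg, Siglech, Tmem119, Sall1 and Olfml3. They were taken by symbol from a table of raw counts with 54532 entries. All 9 passed the filter on low counts that left 17736 genes for testing. The counts come from bulk RNA sequencing of brain. All animals were females aged 9 months, and the 16 libraries split evenly into 4 groups. Mice with an intact Ch25h gene (+/+) and mice without it (-/-) were each sampled as Tau- and as Tau+. Ch25h encodes cholesterol 25-hydroxylase, an enzyme that makes the oxysterol 25-hydroxycholesterol. The line, transgene and promoter behind Tau+ and the cells in which Ch25h is missing are not given in the sources used here. Frontal cortex is the labelled tissue, but the hippocampus is the one in the series' text. Nothing in the labels states which animal each library came from, so p-values measure the spread between libraries, and the replicate number only names a library.

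Microglia are the resident macrophages of the brain. At rest they survey the tissue through surface receptors for nucleotides, chemokines and lipids, and the transcription factor Sall1 and signals of the TGF-beta family keep this state. Around amyloid plaques and dying neurons microglia take on a disease-associated state, in which genes of phagocytosis and lipid handling rise and many of the resting genes are known to fall per cell. A bulk library adds up all cells, so fewer cells of a type and less RNA per cell cannot be told apart in any value below.

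Depth was 15530352 to 25602500 counts per library, and the members had 134 to 1929 counts in a library. Levels are given as CPM, counts scaled to a common library size after TMM, which balances libraries on the bulk of their genes. Ch25h had 0 counts in all 8 -/- libraries and 5 to 30 counts in the 8 +/+ libraries. Prnp, the prion protein gene, was higher in Tau+ than in Tau- by 1.10 on the log2 scale (SE 0.09) in +/+, adjusted p = 2.43e-06 by edgeR. Libraries fell into 2 classes by one ribosomal RNA entry of the table, CT010467.1: 7 of the 8 -/- libraries had 2289 to 5684 CPM of all counts, and the other 9 libraries had 111 to 475. Replicate 1 of Ch25h-/- Tau+ was the only -/- library of the low class, so library class and Ch25h genotype can hardly be told apart. Markers of choroid plexus summed to between 15.3 and 2753 CPM and varied within every group. Fitted means of regional markers also differed between groups, with none called: for Ch25h loss in Tau- 6 of 6 hippocampus markers had higher means (median 0.44) and 0 of 6 choroid plexus markers did (median -0.53), and for tau in Ch25h-/- 0 of 6 (median -0.30) and 6 of 6 (median 1.25) did. For Ch25h loss in Tau+ 5 of 6 hippocampus (median 0.10) and 6 of 6 choroid plexus markers (median 0.48) had higher means. For tau in Ch25h+/+ 2 of 6 (median -0.13) and 6 of 6 (median 0.35) did. In the interaction, the difference of the tau effect between genotypes, 0 of 6 (median -0.60) and 6 of 6 (median 0.91) lay above 0. The part of regional makeup in the members' values was not tested. Summed markers of frontal cortex reached 481 to 623 CPM and those of hippocampus 206 to 408 CPM.

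Per kilobase of annotated exon, the members differed several-fold in level. The length counts all annotated exons of a gene, whichever of them the cells use, so the order of genes depends on the annotation. Averaged over 16 libraries, Cx3cr1 had 12.9 CPM per kb (SD 2.61), P2ry12 11.8 (SD 2.14) and Tmem119 11.0 (SD 1.56), with SD ranges that met. These SDs cover all 4 groups and so include differences between groups, and no test between genes was run. Which of them stood highest changed with the group: Tmem119 in Ch25h+/+ Tau- (12.2, SD 0.76), Cx3cr1 in Ch25h+/+ Tau+ (16.4, SD 3.08) and P2ry12 in Ch25h-/- Tau- (13.6, SD 1.79) and Ch25h-/- Tau+ (12.9, SD 2.56). Selplg followed at 6.97 CPM per kb (SD 0.92), below Tmem119 by more than the sum of their SDs, while its SD range met that of Sall1. Sall1 at 5.47 (SD 0.70), Gpr34 at 5.01 (SD 1.18), P2ry13 at 4.48 (SD 0.79) and Siglech at 3.84 (SD 0.68) followed, and neighbours in this order lay within their spread. Olfml3 was the lowest at 2.79 CPM per kb (SD 0.61), with an SD range that met that of Siglech. Every member was thus present in every library, and none of the 16 libraries lacked a microglial signal.

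The first comparison asked what Tau+ did to these genes in mice with an intact Ch25h gene, and which of them rose with the general microglial and leukocyte signal. In Ch25h+/+, 8 of the 9 had a higher fitted mean in Tau+ than in Tau-, with a median log2 fold change of 0.20 against -0.01 over all genes tested. Only 1 of the 9, Cx3cr1, passed the test (edgeR quasi-likelihood F test, Benjamini-Hochberg adjusted p under 0.05), where 1.47% of all genes were called higher and 1.56% in either direction. Tmem119, a gene often used to name microglia, was nearly level. Olfml3 was the only member with a lower mean in Tau+. Marker lists of other cells had medians of like size in this comparison: 0.31 for endothelial and mural cells (8 of 8 higher, 1 called), 0.28 for oligodendrocytes (7 of 7 higher, 0 called) and 0.24 for astrocytes (7 of 7 higher, 1 called), against -0.02 for neurons (3 of 8 higher, 0 called). Their part in the members' values was not tested.

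Cx3cr1 encodes the receptor for fractalkine, a chemokine that neurons present on their surface. It lies on chromosome 9 (GRCm38, chr9:119901616-120069879, minus strand) and shares 78 exonic bases, 1.73% of its exon length, with the antisense gene Gm33858. Cx3cr1 measured 49.8, 53.4, 58.6 and 44.8 CPM in the 4 Ch25h+/+ Tau- libraries and 57.2, 69.5, 78.2 and 90.1 CPM in the 4 Ch25h+/+ Tau+ libraries. Of the Tau+ libraries 3 lay above all Tau- libraries, and replicate 1 lay within their range. The log2 fold change was 0.51 (SE 0.11, 95% interval 0.28 to 0.75), with an adjusted p of 0.0229 by edgeR. This call was lost without Tau+ replicate 3 (adjusted p = 0.0647), Tau+ replicate 4 (0.113), Tau- replicate 1 (0.0796), Tau- replicate 2 (0.0532) or Tau- replicate 4 (0.103), and in a fit of only the 8 libraries compared (0.125). The log2 fold change in these 6 fits was 0.49, 0.41, 0.50, 0.54, 0.45 and 0.52, so it moved less than the call.

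Gpr34 encodes a receptor for lysophosphatidylserine, a lipid released from damaged membranes. It lies within the span of Cask on the opposite strand of chromosome X (chrX:13632089-13640858) with no shared exonic base. Gpr34 measured 9.29, 8.10, 7.81 and 6.75 CPM in Ch25h+/+ Tau- and 11.6, 11.0, 11.1 and 15.3 CPM in Ch25h+/+ Tau+. All Tau+ libraries lay above all Tau- libraries, which held for 3.89% of all genes tested. The log2 fold change of 0.62 (SE 0.17, 95% interval 0.27 to 0.97) was the largest of the 9, but its adjusted p by edgeR was 0.0782. It was called with DESeq2 (adjusted p = 0.0198), limma-voom (0.0324), no filter on low counts (0.0327), library class as a covariate (0.0406) and GC-corrected offsets (0.0491), and over all alternatives the adjusted p ran from 0.0198 to 0.343.

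P2ry12 and P2ry13 encode receptors for ADP. P2ry12 steers the processes of microglia toward sites of ATP release, and its loss from the surface is a common sign of activation. The genes are neighbours on the minus strand of chromosome 3, at chr3:59216272-59262871 and chr3:59207892-59210882, both within the span of Med12l on the opposite strand, which shares 9 exonic bases with P2ry12 and none with P2ry13. The 250 bases before the RefSeq starts of both genes (GRCm38.p6, minus strand, 5′ to 3′) are shown because these neighbours answer to a shared ligand, and that of Cx3cr1 because it was called and they were not. Capitals mark AGGAAG or GAGGAA, 2 overlapping forms of the core bound by PU.1, the myeloid transcription factor encoded by Spi1, searched on both strands.
P2ry12, chr3:59262986-59263235: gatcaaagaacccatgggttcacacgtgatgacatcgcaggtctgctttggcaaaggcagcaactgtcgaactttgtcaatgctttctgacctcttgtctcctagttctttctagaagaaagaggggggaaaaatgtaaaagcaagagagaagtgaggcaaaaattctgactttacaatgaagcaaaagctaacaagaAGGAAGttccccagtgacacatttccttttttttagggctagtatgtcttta
P2ry13, chr3:59210883-59211132: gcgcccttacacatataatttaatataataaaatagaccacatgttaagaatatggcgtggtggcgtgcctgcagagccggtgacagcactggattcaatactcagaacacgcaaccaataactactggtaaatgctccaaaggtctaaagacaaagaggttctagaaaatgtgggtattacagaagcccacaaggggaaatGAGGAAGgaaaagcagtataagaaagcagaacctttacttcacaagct
Cx3cr1, chr9:120068297-120068546: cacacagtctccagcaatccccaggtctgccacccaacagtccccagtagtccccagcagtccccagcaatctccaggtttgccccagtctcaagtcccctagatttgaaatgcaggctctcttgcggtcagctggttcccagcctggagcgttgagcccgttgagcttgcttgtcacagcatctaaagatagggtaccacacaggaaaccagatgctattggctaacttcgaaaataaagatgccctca
P2ry12 held AGGAAG once, P2ry13 held both forms in a single overlapping run, and Cx3cr1 held neither in this window. Of 32851 mouse promoter windows of the same length, 29.5% held AGGAAG, 23.3% held GAGGAA and 39.2% held either, so a match is common and only describes the letters. RefSeq windows were matched for 6 of the 9 members. Of the matched members not shown, none of which was called for tau in Ch25h+/+, Olfml3 held AGGAAG once and Siglech held neither form. Sall1 held AGGAAG in only 1 of its windows.

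P2ry12 measured 27.95, 22.1, 25.9 and 23.9 CPM in Ch25h+/+ Tau- and 27.0, 28.8, 29.0 and 27.1 CPM in Ch25h+/+ Tau+. The Tau+ libraries lay close together, with a coefficient of variation of 3.78%, and overlapped the Tau- range. The log2 fold change was 0.17 (SE 0.13, 95% interval -0.10 to 0.43, adjusted p = 0.825 by edgeR). P2ry13 measured 11.0, 9.46, 14.3 and 7.86 CPM in Tau- and 10.4, 10.8, 13.2 and 14.1 CPM in Tau+. Its groups overlapped over most of their range, and its log2 fold change was 0.18 (SE 0.18, adjusted p = 0.891).

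Selplg encodes PSGL-1, a surface ligand of the selectins. It measured 27.5, 27.5, 29.3 and 31.9 CPM in Ch25h+/+ Tau- and 34.3, 30.5, 33.5 and 40.5 CPM in Ch25h+/+ Tau+, so that only Tau+ replicate 2 fell within the Tau- range. The log2 fold change was 0.26 (SE 0.09, adjusted p = 0.31 by edgeR). Siglech encodes Siglec-H, a lectin that signals through the adaptor encoded by Tyrobp. It measured 10.1, 9.35, 13.6 and 11.3 CPM in Tau- and 12.3, 12.6, 15.3 and 10.8 CPM in Tau+, groups that overlapped, with a log2 fold change of 0.20 (SE 0.15, adjusted p = 0.817).

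Tmem119 encodes a membrane protein of unclear function that serves as a marker of resident microglia. It measured 29.2, 26.3, 27.7 and 30.3 CPM in Ch25h+/+ Tau- and 31.2, 27.5, 28.1 and 28.2 CPM in Ch25h+/+ Tau+. The groups overlapped over most of their range, and the log2 fold change was 0.02 (SE 0.09, 95% interval -0.17 to 0.21, adjusted p = 0.99 by edgeR). The interval's upper bound of 0.21 lies below the 0.42 that was the smallest fitted log2 fold change among the 15 lineage genes described below. That 0.42 has a spread of its own, and the difference between the genes was not tested.

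Sall1 encodes a zinc finger transcription factor that maintains microglial identity. It measured 26.7, 26.2, 31.0 and 23.0 CPM in Ch25h+/+ Tau- and 27.1, 32.2, 35.8 and 34.2 CPM in Ch25h+/+ Tau+. Of the Tau+ libraries 3 lay above the Tau- range, and the log2 fold change of 0.27 (SE 0.11) had an adjusted p of 0.399 by edgeR. Olfml3 encodes a secreted protein with an olfactomedin domain. It measured 18.9, 19.6, 22.6 and 17.8 CPM in Tau- and 14.7, 20.0, 9.30 and 14.7 CPM in Tau+, where 3 of 4 libraries lay below the Tau- range and replicate 3 had the lowest value of all 16 libraries. Its log2 fold change was -0.43 (SE 0.20, adjusted p = 0.515).

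**Figure D1:**
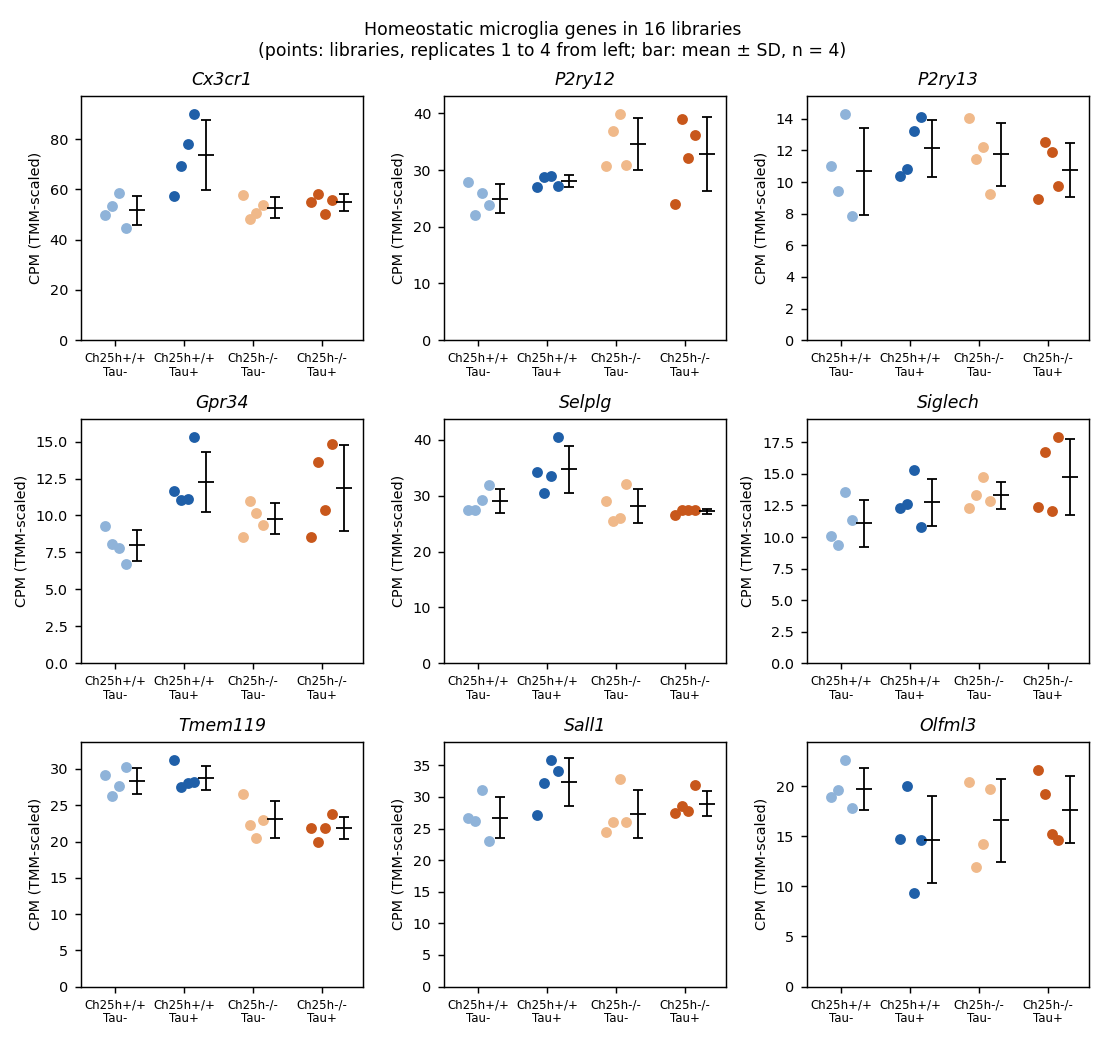
CPM of each of the 9 homeostatic microglia genes (vertical axis, from 0) in the 4 groups, with 1 point per library in order of replicate number and a bar for the mean ± SD (n = 4). Cx3cr1 in Ch25h+/+ Tau+ reaches 57.2 to 90.1 CPM against 44.8 to 58.6 in Ch25h+/+ Tau-, while Tmem119 covers 27.5 to 31.2 and 26.3 to 30.3.

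Larger changes stood in other microglial gene lists of the same libraries. Of 15 lineage genes, which microglia share with other leukocytes, all 15 had higher fitted means in Ch25h+/+ Tau+ and 9 rose past the threshold, with a median log2 fold change of 0.75. Among them were Ptprc, which encodes CD45 (1.31, SE 0.17, adjusted p = 0.000272 by edgeR), Spi1 (0.99, SE 0.14), Laptm5 (0.75, SE 0.11) and Cyth4 (0.69, SE 0.11). Of 10 phagocyte genes, 8 rose and the median was 1.20, with the complement gene C1qa at 1.35 (SE 0.14) and the protease gene Ctss at 1.28 (SE 0.11). Of 22 disease-associated genes, 15 rose and the median was 0.91, led by Clec7a at 6.10 (SE 0.68), which climbed from a mean of 0.10 to 7.06 CPM. These shares stand against 1.47% of all genes, and the lists were chosen with earlier results of these data known.

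A further 16 genes that are also listed as homeostatic lay closer to the 9 members. In Ch25h+/+ Tau+, 13 of the 16 had higher means, 3 rose past the threshold and the median log2 fold change was 0.23. Among them were Csf1r, the receptor that microglia need to survive (0.50, SE 0.08, adjusted p = 0.00153 by edgeR) and Tgfbr1, a TGF-beta receptor subunit (0.54, SE 0.13, adjusted p = 0.0395). Of 10 tested partners of the 9 genes (other purinergic receptors, ligands, TGF-beta signalling genes and the transcription factor gene Irf8), 3 rose: Irf8 (1.06, SE 0.18), the ligand gene Tgfb1 (0.88, SE 0.15) and the receptor gene Tgfbr2 (0.58, SE 0.10). The purinergic receptor gene P2rx7, named next by p, stood at 0.50 (SE 0.14, adjusted p = 0.103).

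**Figure D2:**
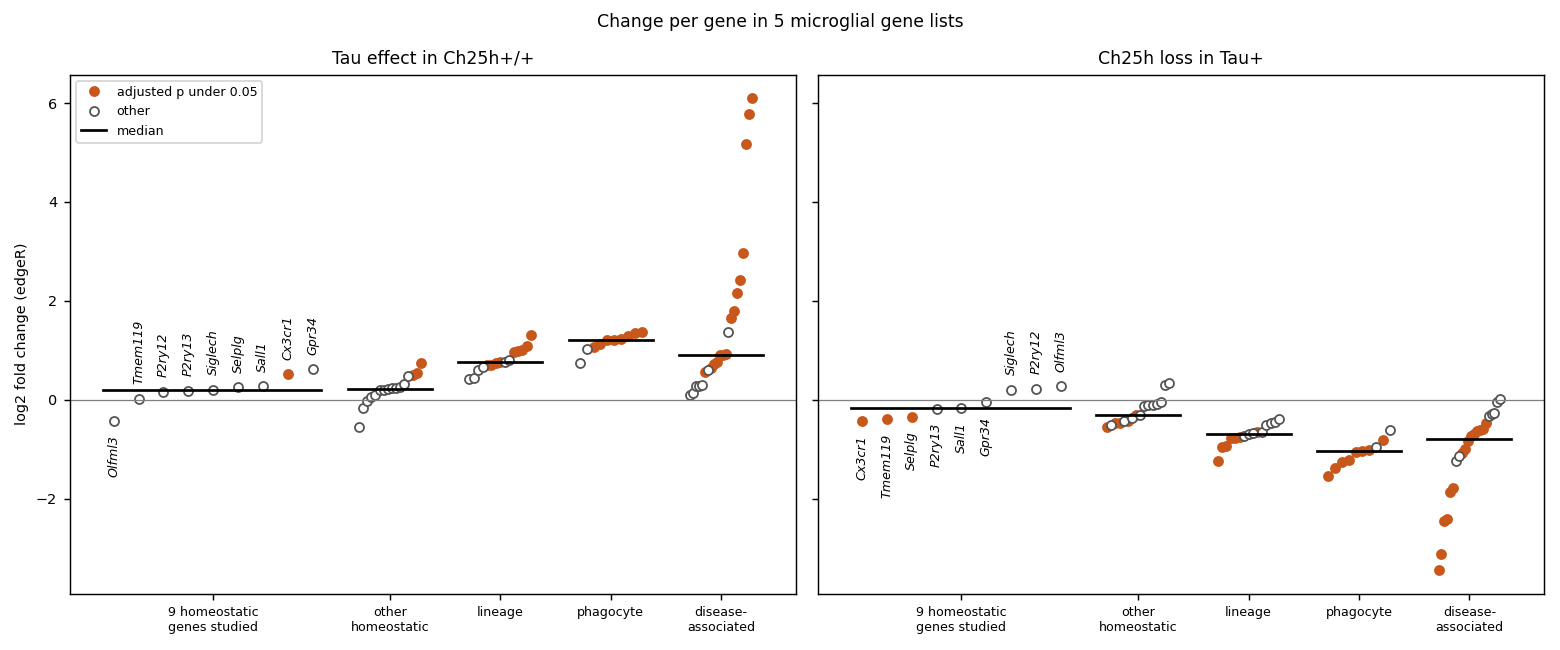
Log2 fold change of each gene in 5 microglial lists (vertical axis) for the tau effect in Ch25h+/+ (left) and Ch25h loss in Tau+ (right), with filled points for adjusted p under 0.05 and a line for each list's median. In the left panel the medians are 0.20 for the 9 members, 0.23 for the other homeostatic genes, 0.75 for lineage, 1.20 for phagocyte and 0.91 for disease-associated genes.

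No file measures cell number, so the mean log2(CPM + 0.5) of the 15 lineage genes, called the lineage score here, served as a stand-in. It was 2.56 (SD 0.04) in Ch25h+/+ Tau-, 3.27 (SD 0.18) in Ch25h+/+ Tau+, 2.59 (SD 0.10) in Ch25h-/- Tau- and 2.63 (SD 0.16) in Ch25h-/- Tau+, with n = 4 each. In the 4 Ch25h+/+ Tau+ libraries it was 3.08, 3.19, 3.31 and 3.51 in replicates 1 to 4. Cx3cr1 and P2ry13 placed these 4 libraries in the same order, whereas P2ry12 (27.0 to 29.0 CPM) and Tmem119 (27.5 to 31.2 CPM) did not, and Siglech had its lowest value of the group, 10.8 CPM, in the library with the highest score. With 4 libraries no correlation was computed.

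The fit was then repeated with the lineage score as an offset, which asks whether a gene rose as much as the lineage genes did. This scaling moved the median of all genes by -0.71 in the tau effect in Ch25h+/+, and 78.7% of all genes were called lower (79.4% in either direction), so a call here says only that a gene did not keep up. Under it 2 of the 9 members were not called: Gpr34 at -0.10 (SE 0.16, 95% interval -0.45 to 0.24, adjusted p = 0.554 by edgeR) and Cx3cr1 at -0.22 (SE 0.11, 95% interval -0.45 to 0.02, adjusted p = 0.0823). The other 7 were lower relative to the lineage genes. Without Ch25h+/+ Tau- replicate 3 the P2ry13 call was lost (-0.37, adjusted p = 0.0658 by edgeR), and without Ch25h+/+ Tau- replicate 4 Cx3cr1 was called (-0.29, adjusted p = 0.0303). Sall1 (-0.44, SE 0.13), Selplg (-0.46, SE 0.12), Siglech (-0.50, SE 0.16), P2ry12 (-0.54, SE 0.15) and P2ry13 (-0.54, SE 0.18) had values above the shift of all genes. The 95% intervals of Sall1, Siglech, P2ry12 (-0.84 to -0.24) and P2ry13 included that shift, and that of Selplg (-0.71 to -0.21) ended at it. Tmem119 at -0.68 (SE 0.14) lay close to that shift, where genes level between the groups lie. Olfml3 at -1.12 (SE 0.21, adjusted p = 7.36e-05 by edgeR) had a value below it, with a 95% interval (-1.56 to -0.69) that included it.

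The log2 ratio of each member to the lineage score gives the values per library. For Tmem119 it was 2.33, 2.24, 2.24 and 2.34 in Ch25h+/+ Tau- and 1.91, 1.62, 1.53 and 1.33 in Ch25h+/+ Tau+, with no overlap. For Cx3cr1 it was 3.09, 3.25, 3.31 and 2.90 against 2.77, 2.94, 2.99 and 2.99, and the groups overlapped. P2ry12, Sall1, Siglech, Selplg and Olfml3 also had no overlap. Gpr34 and P2ry13 did overlap, although P2ry13 was called lower in the fit above. The score itself did not overlap between these groups (2.50 to 2.61 against 3.08 to 3.51), so a level gene tends to separate as well. The share of all genes without overlap in this ratio was not computed. Which members kept up depended on the genes that stood in for cell number. With the 10 phagocyte genes as the offset all 9 members were called lower, as were 16083 of all 17736 genes, and with the 16 other homeostatic genes 0 of 9 were called and 391 of 17736 genes were. In that last fit Cx3cr1 stood at 0.30, Gpr34 at 0.40, Sall1 at 0.07, Selplg at 0.06 and Siglech at 0.01, all turned in sign.

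**Figure D3:**
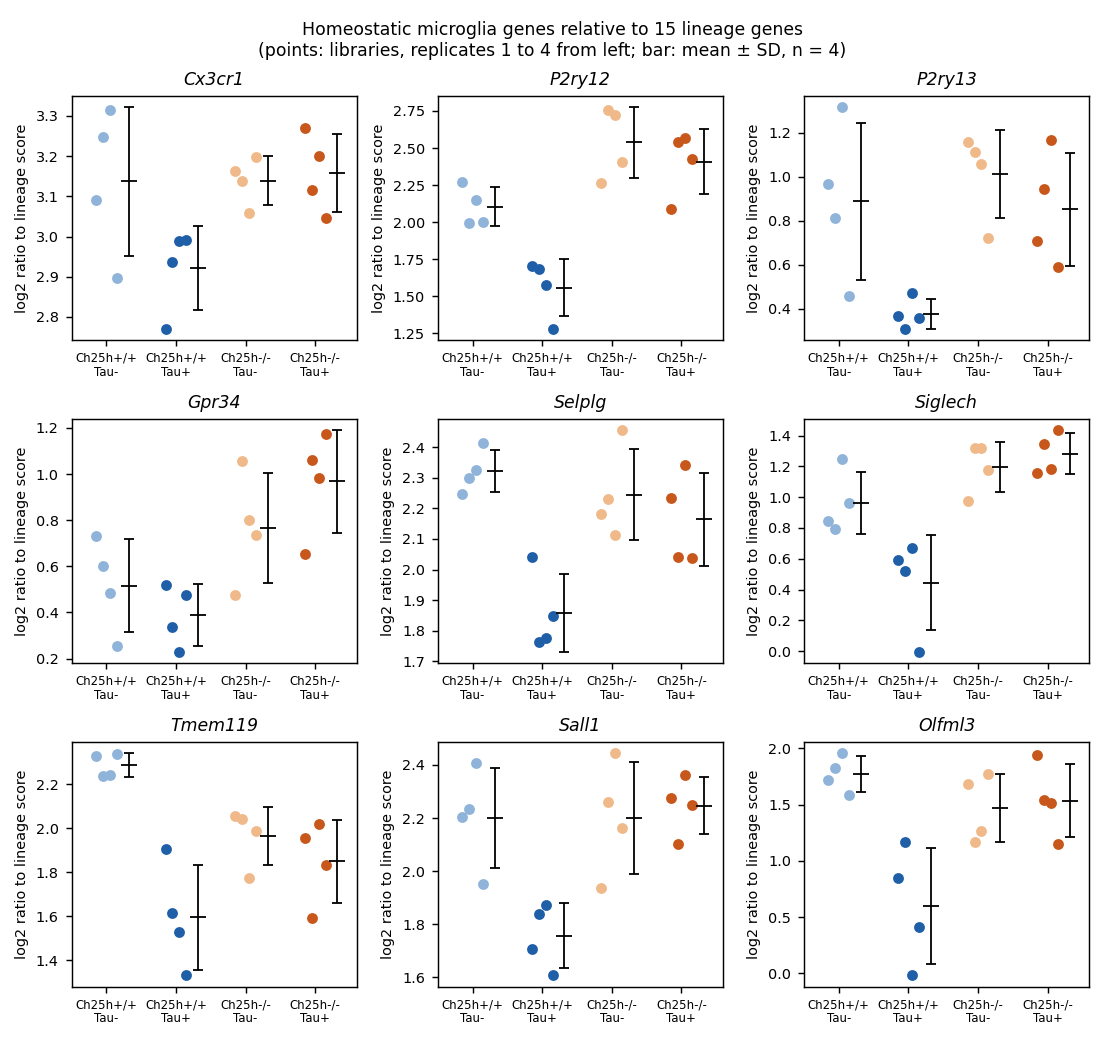
Log2 ratio of each member's CPM to the lineage score (vertical axis, a separate range per gene) in the 4 groups, with 1 point per library and a bar for the mean ± SD (n = 4). Tmem119 drops from 2.24 to 2.34 in Ch25h+/+ Tau- to 1.33 to 1.91 in Ch25h+/+ Tau+, while Cx3cr1 and Gpr34 overlap between these groups.

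In Ch25h-/- mice the same comparison of Tau+ with Tau- called none of the 9 (edgeR, where 0.0395% of all genes were called). None had an unadjusted p under 0.05, and DESeq2 and limma-voom called 0 as well. Log2 fold changes ran from -0.13 for P2ry13 to 0.27 for Gpr34, with a median of 0.06 over the members. Cx3cr1 measured 57.8, 48.2, 50.5 and 53.9 CPM in Ch25h-/- Tau- and 55.1, 58.3, 50.2 and 55.7 CPM in Ch25h-/- Tau+, a log2 fold change of 0.06 (SE 0.11). Gpr34 measured 8.55, 11.0, 10.2 and 9.37 CPM and 8.57, 13.6, 10.4 and 14.9 CPM, with 2 of the 4 Tau+ libraries above the Tau- range. The lineage list had 0 of 15 genes called and a median of 0.06. With the lineage offset 0 of the 9 members were called, where 0.0451% of all genes were, and none had an unadjusted p under 0.05.

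Whether the tau effect differed between the 2 genotypes was tested by the interaction, and 0 of the 9 members passed (edgeR, where 0.0338% of all genes did). Of the members 2 had an unadjusted p under 0.05, Cx3cr1 (-0.46, SE 0.16, adjusted p = 0.789) and Selplg (-0.30, SE 0.13, adjusted p = 1), and DESeq2 and limma-voom called 0. A difference between the genotypes is therefore not shown for any member by itself. With the lineage offset the median of all genes in the interaction moved by 0.68 and 62.5% of them were called, a larger share than the 4 of 9 members. These were Olfml3 at 1.20 (SE 0.30, adjusted p = 0.0036 by edgeR), Siglech at 0.59 (SE 0.23, adjusted p = 0.029), Tmem119 at 0.57 (SE 0.19, adjusted p = 0.0144) and Sall1 at 0.48 (SE 0.19, adjusted p = 0.0301). The values of Siglech, Tmem119 and Sall1 lay below the shift of all genes and that of Olfml3 above it. None of these 4 was called with the other homeostatic genes as the offset. With the phagocyte genes as the offset 6 members were called, P2ry12 (0.63) and Selplg (0.60) besides the 4, where 12970 of all 17736 genes were.

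The loss of Ch25h in Tau+ mice was compared next. This comparison shares the Ch25h+/+ Tau+ libraries with the tau effect described above, so the values of both are not independent. Of the 9 members 3 fell, Tmem119, Cx3cr1 and Selplg, where 2.40% of all genes were called lower and 3.55% in either direction, and the median log2 fold change over the members was -0.16. Tmem119 measured 31.2, 27.5, 28.1 and 28.2 CPM in Ch25h+/+ Tau+ and 21.9, 19.9, 21.9 and 23.8 CPM in Ch25h-/- Tau+. These groups did not overlap, as was so downward for 5.74% of all genes, and the log2 fold change was -0.39 (SE 0.09, adjusted p = 0.0278 by edgeR).

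Cx3cr1 fell from 57.2 to 90.1 CPM in Ch25h+/+ Tau+ to 50.2 to 58.3 CPM in Ch25h-/- Tau+, with a log2 fold change of -0.43 (SE 0.11, adjusted p = 0.0462 by edgeR) and some overlap. Selplg measured 34.3, 30.5, 33.5 and 40.5 CPM against 26.6, 27.4, 27.5 and 27.4 CPM, with no overlap and a log2 fold change of -0.35 (SE 0.10, adjusted p = 0.0497). All 3 calls were lost with library class as a covariate, with GC-corrected offsets and in a fit of only the 8 libraries compared, and the Selplg call also with no filter on low counts (adjusted p = 0.0526). The log2 fold changes in those 3 fits were -0.42, -0.41 and -0.43 for Cx3cr1 and -0.38, -0.34 and -0.35 for Selplg, about as large as reported. For Tmem119 they were -0.39, -0.21 and -0.39, so that only the GC-corrected value was smaller. All 3 calls held without replicate 1 of Ch25h-/- Tau+, the only -/- library of the low ribosomal RNA class. Adjusted p by edgeR was then 0.0209 for Tmem119, 0.038 for Cx3cr1 and 0.0492 for Selplg. In that fit library class and Ch25h genotype coincide, so it cannot tell them apart, and 1691 genes were called against 629 with all libraries. Leaving out single libraries ended the Tmem119 call in 4 of 16 fits (Ch25h+/+ Tau+ replicates 1 and 4, Ch25h-/- Tau+ replicates 2 and 3), the Cx3cr1 call in 8 and the Selplg call in 13, with adjusted p up to 0.0816, 0.147 and 0.161.

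The other 6 members were not called in this comparison. P2ry12 measured 24.0, 39.0, 32.2 and 36.2 CPM in Ch25h-/- Tau+ and had a log2 fold change of 0.23 (SE 0.13, adjusted p = 0.29 by edgeR). Siglech at 0.21 and Olfml3 at 0.27 also had higher means without Ch25h, whereas P2ry13 at -0.18, Sall1 at -0.16 and Gpr34 at -0.06 had lower ones. In contrast, 8 of 10 phagocyte genes fell (median -1.05), among them C1qa (-1.54, SE 0.14) and Tyrobp (-1.38, SE 0.16), and 7 of 15 lineage genes fell (median -0.68), among them Spi1 (-1.24, SE 0.14) and Dock2 (-0.93, SE 0.19). Of the other homeostatic genes 5 of 16 fell (median -0.31), among them Csf1r (-0.47, SE 0.08), and of the partners 4 of 10, Irf8, Tgfb1, Tgfbr2 and P2ry6. Leaving out 1 library moved these counts to between 3 and 10 for the lineage genes, 1 and 6 for the other homeostatic genes and 1 and 4 for the partners. The lowest counts (3, 1 and 1) came without Ch25h+/+ Tau+ replicate 4 and also without Ch25h-/- Tau+ replicate 3, and the fit of only the 8 libraries compared called 3, 1 and 2. Without Ch25h-/- Tau+ replicate 2 or replicate 4 the other homeostatic count was 3. With library class as a covariate 0 of the 15 lineage genes were called, while their median log2 fold change was -0.87 and all 15 had lower means.

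Against the lineage score, 7 of the 9 members were higher with Ch25h loss in Tau+, where the median of all genes moved by 0.65 and 73.0% of all genes were called higher (73.4% in either direction). The values ran from 0.23 for Cx3cr1 and 0.25 for Tmem119, which were not called, to 0.83 for Siglech, 0.85 for P2ry12 and 0.91 for Olfml3. With library class as a covariate 4 of the 9 were called, where 11218 of all 17736 genes were. With the other homeostatic genes as the offset 2 of the 9 were, where 4291 genes were, and with the phagocyte genes all 9 were, where 16137 genes were. Leaving out 1 library moved the count to between 5 and 8. Selplg (0.30, SE 0.12) lost its call without Ch25h+/+ Tau+ replicate 2 or 3 or Ch25h-/- Tau+ replicate 1 or 3 (adjusted p up to 0.102 by edgeR), and P2ry13 (0.48, SE 0.18) without Ch25h-/- Tau+ replicate 3 (0.0848). Tmem119 was called without Ch25h+/+ Tau+ replicate 1 (0.0156) or Ch25h-/- Tau+ replicate 2 (0.0424).

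In Tau- mice, Ch25h loss gave a call for 0 of the 9 members by edgeR, where 1.03% of all genes were called. Of the members 2 had an unadjusted p under 0.05, and DESeq2 and limma-voom each called 2, P2ry12 and Tmem119. P2ry12 measured 27.95, 22.1, 25.9 and 23.9 CPM in Ch25h+/+ Tau- and 30.8, 36.9, 40.0 and 30.9 CPM in Ch25h-/- Tau-. These groups did not overlap, as was so upward for 7.64% of all genes, and the log2 fold change was 0.47 (SE 0.13, adjusted p = 0.0682 by edgeR). P2ry12 was called without replicate 1 of Ch25h-/- Tau+ (adjusted p = 0.0238 by edgeR). Library class and genotype coincide in that fit, where 499 genes were called against 182 with all libraries. Med12l, whose span holds P2ry12 on the opposite strand, had means of 28.3 CPM (SD 1.81) and 37.6 CPM (SD 4.25) in these groups (log2 fold change 0.41, SE 0.16, adjusted p = 0.162 by edgeR), and the part of its reads in P2ry12 was not tested, since the use of strand in counting is not given in the sources used here. Tmem119 measured 26.6, 22.3, 20.4 and 23.0 CPM in Ch25h-/- Tau-, with only replicate 1 inside the Ch25h+/+ Tau- range, and had a log2 fold change of -0.30 (SE 0.09, adjusted p = 0.0873). With the lineage offset 0 of 9 were called, where 0.113% of all genes were, and 2 had an unadjusted p under 0.05.

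P2ry12 and Tmem119 thus had fitted changes of opposite sign for Ch25h loss. Library class and genotype can hardly be told apart, and the part of class in the members' values was not tested. P2ry12 reached 30.8 to 40.0 CPM in the 7 -/- libraries rich in ribosomal RNA. In the single -/- library of the low class it was 24.0 CPM, inside the range of 22.1 to 29.0 CPM of the 8 +/+ libraries. Tmem119 was 21.9 CPM in that same library, below the 26.3 to 31.2 CPM of all 8 +/+ libraries and inside the 19.9 to 26.6 CPM of the other -/- libraries. Selplg was 26.6 CPM there, also below the +/+ minimum of 27.5 CPM. With library class as a covariate the P2ry12 log2 fold change for Ch25h loss became -0.22 in Tau+ and -0.10 in Tau-, and that of Tmem119 was -0.39 and -0.30, uncalled. That fit rests on 1 library for the split of class from genotype.

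In Tau-, the changes with Ch25h loss were mostly higher in members of low GC content than in those of high GC content. The log2 fold change was 0.29 for Gpr34 (37.1% GC) and 0.47 for P2ry12 (38.6% GC). It was 0.13 for P2ry13 (44.7%) and 0.26 for Siglech (45.5%), near 0 for Selplg, Cx3cr1 and Sall1 (49.8% to 51.6%), -0.25 for Olfml3 (52.4%) and -0.30 for Tmem119 (59.1%). In Tau+ the order was partly kept: P2ry12 at 0.23, Siglech at 0.21 and Tmem119 at -0.39 followed it, and Gpr34 at -0.06, P2ry13 at -0.18 and Olfml3, the highest at 0.27, did not. Selplg stood at -0.35, Cx3cr1 at -0.43 and Sall1 at -0.16. Offsets fitted per library to level its trend over GC brought P2ry12 to 0.26 and Tmem119 to -0.11 in Tau-, and Tmem119 to -0.21 (adjusted p = 0.231 by edgeR) in Tau+. In Tau+ the corrected Cx3cr1 (-0.41) and Selplg (-0.34) differed little from the uncorrected values. P2ry12 went to 0.03 there, while Gpr34 (-0.28), P2ry13 (-0.27) and Olfml3 (0.33) moved away from 0. For the tau effect in Ch25h+/+, whose 8 libraries all belong to the low class, the GC-corrected values of Cx3cr1 and Gpr34 both passed the threshold.

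**Figure D4:**
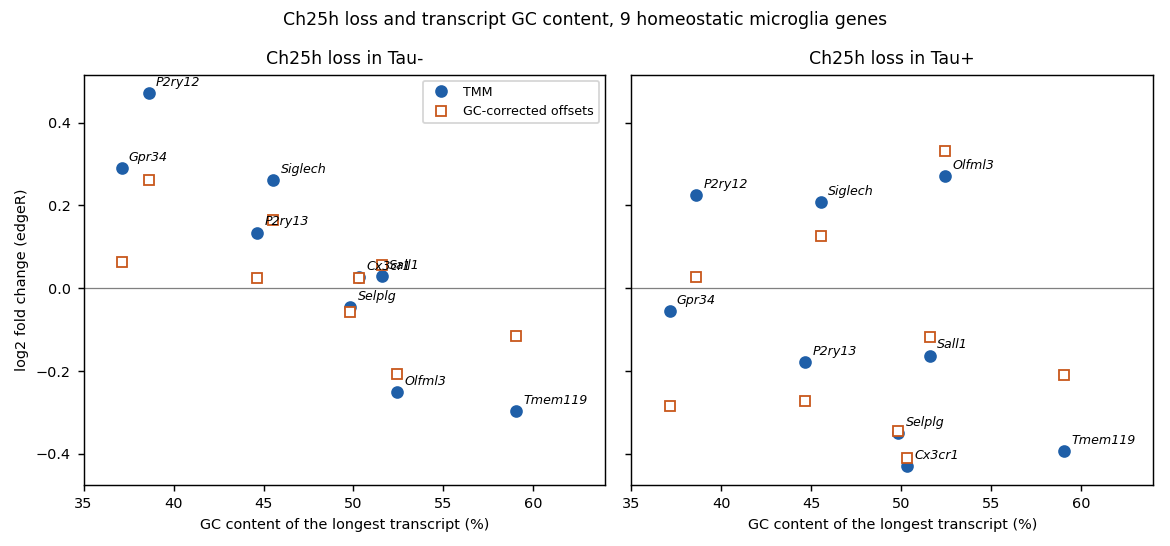
Log2 fold change for Ch25h loss (vertical axis) against the GC content of each member's longest transcript in percent (horizontal axis), in Tau- (left) and Tau+ (right), with filled circles for the TMM fit and open squares for GC-corrected offsets. In Tau- the members at 37.1% and 38.6% GC lie at 0.29 and 0.47 and the member at 59.1% lies at -0.30, and the corrected values lie closer together.

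By profile over the 16 libraries the members did not form a single block. The measure was the mean absolute difference of centred log2(CPM + 0.5) values, which is 0 for identical profiles. Cx3cr1 and Sall1 (0.13), Tmem119 and Selplg (0.13), Cx3cr1 and Selplg (0.14) and P2ry12 and Siglech (0.15) were the closest pairs, and Gpr34 and Olfml3 (0.49) the farthest. P2ry12 and P2ry13, neighbours with a shared ligand, stood at 0.23, near their median distance to all genes (0.257 and 0.255) and farther than a flat profile would be from either (0.20). A flat profile would be 0.14 from Selplg, so Tmem119 and Cx3cr1 were hardly nearer to it than that. The pairs of Cx3cr1 with Sall1 and of P2ry12 with Siglech were nearer than a flat profile to both of their genes (0.18 and 0.15, and 0.20 and 0.18). Among 14472 other genes the nearest to Cx3cr1 were Abhd4 (0.06), Msn (0.07) and Scara3 (0.08), those nearest to Tmem119 were Mfge8, Cc2d1a and Gas2l1 (each 0.07), and those nearest to Gpr34 were Lpcat2, Il1rapl2 and Rbbp8 (each 0.15). P2ry12 was nearest to Tgs1, Rnf139 and Tcaim (each 0.10) and Selplg to Aldoc (0.06), Rras and Edem2 (each 0.07). The libraries share depth and class differences, so these distances describe the profiles only.

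Of the members 3 lie on chromosome 3. Within 1 Mb of P2ry12, and likewise of P2ry13, 14 genes were tested, the other of these members among them. Of these genes 0 were called in any of the 5 comparisons. Around Olfml3 (chr3:103722222-103738001) 22 were tested, and 2 were called for tau in Ch25h+/+, Phtf1 and Slc16a1 (named after their values were seen), while the median over these 22 was -0.01. For Ch25h loss in Tau+ 3 of the 22 were called. Tmem119 and Selplg are close on chromosome 5 (chr5:113793729-113800516 and chr5:113818536-113832644).

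Markers of other blood and border cells were read in the same libraries. Of 9 border macrophage genes 8 were tested, all 8 had higher means in Ch25h+/+ Tau+ and 1 was called, and their sum was 39.8 to 58.3 CPM there against 30.3 to 44.1 CPM in Ch25h+/+ Tau-. Monocyte and neutrophil genes summed to at most 2.53 CPM and T cell genes to between 6.20 and 14.7 CPM in any library, and 2 of 7 and 2 of 8 of them could be tested. Endothelial and mural markers summed to 426 to 479 CPM in Ch25h+/+ Tau+ and 312 to 384 CPM in Ch25h+/+ Tau-, with no overlap, while the sums of astrocyte and oligodendrocyte markers overlapped between these groups. With Ch25h loss 0 of 7 oligodendrocyte genes had higher means in Tau+ (median -0.35) or in Tau- (median -0.28), and none was called in either. Of 7 astrocyte genes 2 were called lower with Ch25h loss in Tau+ (median -0.23), as was 1 of 8 endothelial and mural genes (median -0.17). The part of these cells in the members' values was not tested.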

How the data were processed

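Gene counts were deposited by the authors as 1 table of raw counts per gene and library, with no normalization. Per the submitters' processing notes STAR 2.7 and the builds GRCm38 and mm10 were used, while the counting program and the use of strand are not given in the sources used here. Per the labels' protocols, libraries were made from total RNA with a SMARTer mRNA kit. Columns were matched to samples by name.

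Differences were tested with edgeR 4.0.16 in R 4.3.3 (quasi-likelihood F test, two-sided) in a single fit of 16 libraries with a mean per group, after filterByExpr and TMM. P-values were adjusted over 17736 genes by Benjamini-Hochberg at 0.05, and the script was tested on simulated data. CPM values use TMM-scaled library sizes. The lineage offset adds the lineage score to the log library size. Settings tried besides were DESeq2 1.42.0 and limma-voom with quality weights (limma 3.58.1), relative log expression factors, genes with at least 1 count in all or 50 on average, fits restricted to the groups at hand, library class as a term (CT010467.1 above 1000 CPM of all counts), offsets from other lists, each library left out, CPM without TMM and, chosen after seeing the data, GC-corrected offsets (loess, span 0.5).

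Positions, exon lengths and GC content came by symbol from GENCODE M21 (GRCm38), which held 98.9% of symbols. Promoter windows came from RefSeq (GRCm38.p6). The members and lists were chosen with earlier results of these data known. All 9 members are named, with up to 4 genes of smallest p per other list and comparison (some are not reported here), and the 3 nearest genes by profile for those members described.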

Additional observations from a re-analysis of the deposited data

Results flagged for a closer look

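Gpr34, the lysophosphatidylserine receptor gene, stood at 15.3 CPM in replicate 4 of Ch25h+/+ Tau+, while the other 3 libraries of that group lay between 11.0 and 11.6 CPM. This library also had the highest lineage score of all 16, 3.51, and without it the tau effect on Gpr34 had an adjusted p of 0.343 by edgeR. Selplg stood at 26.6 CPM in replicate 1 of Ch25h-/- Tau+, below the 27.4 to 27.5 CPM of the other 3, and this is the -/- library of the low ribosomal RNA class. Both passed Dixon's 95% critical value for a value far from the others, which chance exceeds in about 1 of 20 groups, and 36 groups were tested.

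With the lineage offset 4 of 9 members were called in the edgeR interaction, a test of whether the tau effect differed between the Ch25h genotypes, but so were 62.5% of all genes, whose median was 0.68. The interaction log2 fold change was 1.20 (SE 0.30) for Olfml3, 0.59 (SE 0.23) for Siglech, 0.57 (SE 0.19) for Tmem119 and 0.48 (SE 0.19) for Sall1. Without the lineage offset none of the 4 was called in the interaction (Olfml3 0.52, Siglech -0.05, Tmem119 -0.10, Sall1 -0.19). With the other homeostatic genes as the offset none of the 4 was called, and with the phagocyte genes all 4 were. Leaving out 1 library ended the Sall1 call in 6 of 16 fits and the Siglech call in 4.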

How the results depend on the processing

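The 4 calls of members without the lineage offset (Cx3cr1 for tau in Ch25h+/+, Tmem119, Cx3cr1 and Selplg for Ch25h loss in Tau+) kept their sign in all 24 other fits each but lost the threshold in 6, 7, 11 and 17. Counts for Ch25h loss fell furthest with library class as a covariate, a fit that rests on 1 library. With 134 to 1929 counts per library and 4 libraries a group, the members' 95% intervals were 0.37 to 0.84 log2 units wide, or up to 1.19 for the interaction, which limits the size of difference that can be resolved. No paired analysis was possible because the labels carry no replicate numbers shared between groups. GC-corrected offsets were chosen after seeing the data. The cause of the moves given next was not tested.

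For the tau effect in Ch25h+/+ 277 genes were called by edgeR, 424 by DESeq2 and 498 by limma-voom, and 160 to 299 when leaving out 1 library each. The members called were 1 in the reported fit, 2 with DESeq2, limma-voom, no filter, library class as a covariate and GC-corrected offsets, 0 in fits restricted to the groups at hand, and 0 to 2 when leaving out 1 library each. Tmem119 turned to -0.0117 with GC-corrected offsets and lay between -0.0153 and 0.0516 when leaving out 1 library each. Under the lineage offset 14081 genes and 7 members were called. With the other homeostatic genes as the offset 391 genes and 0 members were, and Cx3cr1 (0.30), Gpr34 (0.40), Sall1 (0.0713), Selplg (0.0556) and Siglech (0.0145) changed sign.

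For the tau effect in Ch25h-/- 7 genes were called, 14 by DESeq2, 2 with a mean of at least 50 counts, 28 with no filter and 6 to 13 when leaving out 1 library each, and 0 members under each. With library class as a covariate Olfml3 turned to -0.021 and P2ry12 to 0.0463. When leaving out 1 library each, Olfml3 ran from -0.0389 to 0.20, P2ry12 from -0.18 to 0.039 and Selplg from -0.10 to 0.0177. Offset by the lineage score 8 genes were called, and 7 to 13 when leaving out 1 library each.

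For Ch25h loss in Tau+ 629 genes were called, 1501 by DESeq2, 1883 by limma-voom, 191 with GC-corrected offsets, 106 in fits restricted to the groups at hand, 10 with library class as a covariate and 108 to 1691 when leaving out 1 library each. The 3 members called became 0 with GC-corrected offsets, 0 with library class, 0 with that restriction and 0 to 3 when leaving out 1 library each. With library class P2ry12 turned to -0.22 and Siglech to -0.0451, and Gpr34 ran from -0.20 to 0.061 when leaving out 1 library each. The lineage offset gave calls for 13021 genes and 7 members. With the other homeostatic genes as the offset 4291 genes and 2 members were called, Cx3cr1 (-0.18), Selplg (-0.11) and Tmem119 (-0.17) changed sign, and with library class 4 members were called.

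For Ch25h loss in Tau- 182 genes were called, 1048 by DESeq2, 1388 by limma-voom, 522 with no filter, 1229 in fits restricted to the groups at hand, 16 with GC-corrected offsets, 0 with library class and 3 to 1306 when leaving out 1 library each. The 0 members called became 2 with DESeq2, 2 with limma-voom, 1 with no filter, 1 with that restriction and 0 to 2 when leaving out 1 library each. With library class Gpr34 (-0.31), Olfml3 (0.15), P2ry12 (-0.10), P2ry13 (-0.22), Sall1 (-0.0715) and Siglech (-0.0709) changed sign, and Cx3cr1 turned to -0.0043 with limma-voom. When leaving out 1 library each, Cx3cr1 ran from -0.0368 to 0.0908, Sall1 from -0.0689 to 0.11 and Selplg from -0.12 to 0.0012. Offset by the lineage score 20 genes were called, 37 with the phagocyte genes as the offset, 0 with library class and 6 to 27 when leaving out 1 library each.

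For the interaction 6 genes were called, 55 by DESeq2, 57 with no filter, 3 with library class and 0 to 22 when leaving out 1 library each. Siglech turned to 0.0258 with library class and ran from -0.18 to 0.0477 when leaving out 1 library each. Under the lineage offset 11091 genes and 4 members were called, and 2 to 5 members when leaving out 1 library each. With the other homeostatic genes as the offset 6 genes and 0 members were, and Cx3cr1 (-0.32), Gpr34 (-0.22), P2ry12 (-0.13), P2ry13 (-0.18), Sall1 (-0.0713) and Selplg (-0.18) changed sign.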
